A study of Mus musculus with 6 samples.

Results

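The tetraspanins are a family of membrane proteins, read here as the genes whose annotated symbol is Tspan followed by digits, together with Cd9, Cd37, Cd53, Cd63, Cd81, Cd82 and Cd151. Of 18193 genes with a probe set of their own, 25 were members, with 56 probe sets between them, and each member was read from its brightest probe set. Cd63 and Tspan7 were not analysed here. Gene expression had been measured on Affymetrix arrays in LSK cells, sorted from bone marrow as lineage marker-negative cells with both Sca1 and c-Kit, the fraction in which the stem cells of blood and their multipotent progeny are found. The IkL/L group was homozygous for IkL, a hypomorphic allele of Ikzf1 that leaves little functional Ikaros, and comprised 3 samples, each from cells of 2 pooled mice. The WT group comprised 3 samples from 1 mouse each. All mice were C57BL/6 and 6 to 7 weeks old, and carried no other allele or treatment named by the labels. The comparison asks how the family is expressed before T-cell development begins when Ikaros is scarce. Values are log2 RMA values, that is, background-corrected probe intensities set to a common distribution over the arrays, and differences are IkL/L minus WT.

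Tetraspanins cross the membrane several times and expose a small and a large extracellular loop, the large one with a conserved Cys-Cys-Gly motif. They bind one another and a set of partners, among them integrins, immunoglobulin superfamily proteins and the protease ADAM10, and thereby group adhesion and signalling proteins into membrane microdomains. In blood, CD37 and CD53 are broadly found on leukocytes, CD81 is found on many cell types, CD9 and CD151 are abundant on platelets, and CD9 and CD82 have been studied on mouse stem cells.

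Ikzf1 itself stood at 10.77, 10.85 and 10.93 in IkL/L samples 1, 2 and 3, against 11.57, 11.59 and 11.44 in the WT samples, a difference of -0.68 (adjusted p = 0.0307, limma), and its dimmer probe set gave -0.21 (0.622). The position of these probe sets in the mutated gene was not analysed here. The arrays correlated at 0.986 to 0.995, and on the first principal component, with 39.3% of the variance, WT 2 lay at -52.7 and the other arrays between -18.6 and 28.0. The LSK markers Kit, Cd34, Flt3, Meis1 and Hlf were above the array medians, which lay at 4.79 to 4.88, on all arrays. Ly6a, which encodes Sca1, was not analysed here.

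Of the 25 tetraspanin genes, 2 were called higher in IkL/L LSK cells, Cd9 and Tspan8, and none was called lower. The threshold was an adjusted p of 0.05 in limma, with adjustment over all 45037 probe sets. Over all genes 0.748% were called higher and 0.242% lower, and 0.989% in either direction, against 8% and 0 among the members. The probe set of Tspan8 was the brightest of its gene only through its IkL/L values, so its share of that 8% rests on the choice of probe set. Neither call held in any of the 6 fits that left out an array. At an unadjusted p under 0.05 there were 5 members higher and 2 lower, a mark that 11.2% of all genes passed in either direction. The median difference of the members was 0.05, beside -0.02 over all genes, and 16 of the 25 differed by less than 0.15 in size. In bulk samples such as these, fewer cells of a type and less RNA per cell cannot be told apart.

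**Figure D1:**
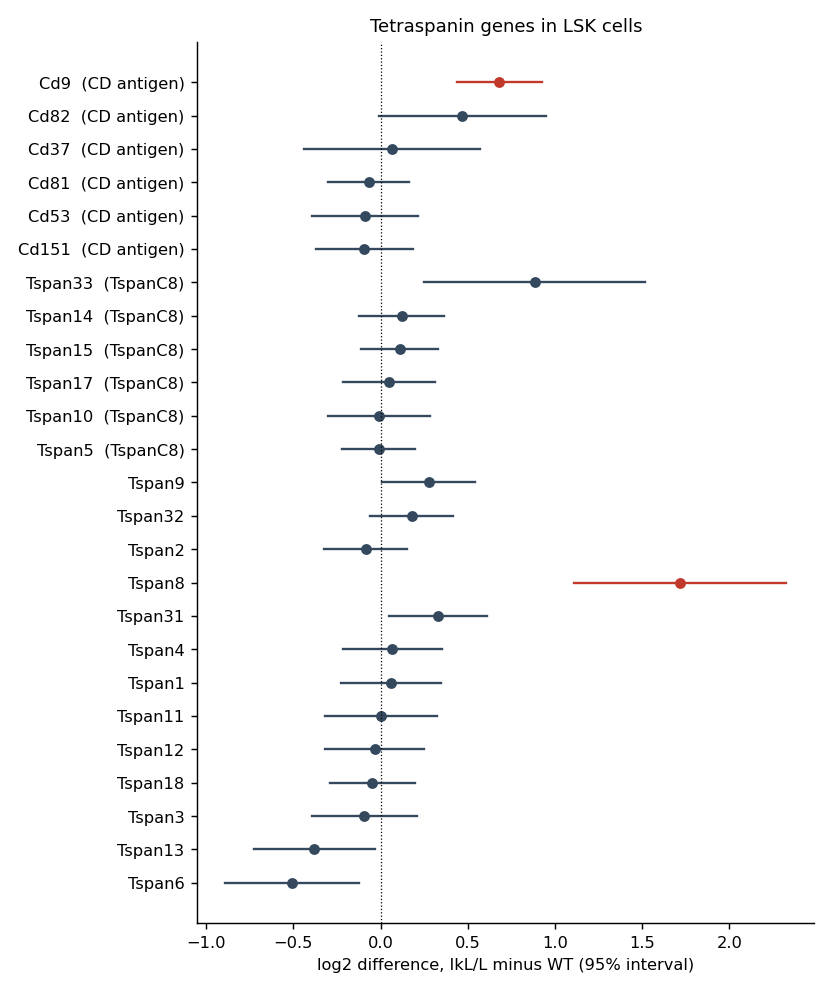
Log2 difference between IkL/L and WT LSK cells (horizontal axis, with its 95% interval from limma, n = 3 arrays per group) for each of the 25 tetraspanin genes, one per row, with the CD antigens and the TspanC8 group on top. Cd9 (0.68) and Tspan8 (1.72), in red, passed the adjusted threshold, and the other 23 genes did not.

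Cd9, which in mouse is needed for the fusion of egg and sperm and marks megakaryocytes and stem cells, stood at 8.88, 8.73 and 8.92 in IkL/L samples 1, 2 and 3, against 8.03, 8.20 and 8.26 in WT samples 1, 2 and 3. Each IkL/L value lay well above each WT value, and the samples of a group were close together. The means were 8.84 ± 0.10 in IkL/L and 8.16 ± 0.12 in WT cells (SD, n = 3 each), a 1.60-fold rise (log2 difference 0.68, 95% interval 0.44 to 0.92, adjusted p = 0.0425 in limma). Cd9 has 1 probe set on the array, so that no other reading of the gene could be set beside it. The rise was of like size whichever array was left out, from 0.61 without WT 1 to 0.74 without IkL/L 2. The adjusted p was then 0.0599 to 0.211, so that the call was lost in each of these 6 fits.

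Tspan8, known from epithelia and from human epithelial tumours, stood at 5.87, 6.43 and 5.65 in IkL/L samples 1, 2 and 3, against 4.53, 3.74 and 4.52 in the WT samples. The 3 IkL/L values lay above the array medians and the 3 WT values below them. Means were 5.98 ± 0.40 in IkL/L and 4.26 ± 0.45 in WT cells (SD, n = 3 each), with a log2 difference of 1.72 (95% interval 1.11 to 2.33, adjusted p = 0.0412 in limma). No fold is given, since RMA gives no detection call and a level under the array medians cannot be told from background. For the same reason the log2 difference is that of the listed values and not an exact size. The other 4 probe sets of Tspan8 lay between 2.88 and 4.69 on all arrays, and their differences ran from -0.13 to 0.02. The probe set read here was the brightest of the gene only through its IkL/L values, since in WT cells its mean of 4.26 was under the 4.51 of the next one, so that the choice itself favoured a higher IkL/L level. The rise was thus seen by 1 of 5 probe sets, and with the mean of the 5 the difference was 0.31 (adjusted p = 0.159). Leaving out 1 array gave 1.46 (without WT 2) to 1.89 (without IkL/L 3), with an adjusted p of 0.0527 to 0.170, past the threshold in none of the 6 fits.

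The promoters of the called genes are shown because Ikaros binds DNA at sites with a GGAA core, and the matches to AGGAA and GGGAA on either strand are in capitals. They are RefSeq sequences of assembly GRCm38.p6, from 250 bases before to 50 bases after the annotated start, written on the strand of the gene; Cd9 lies on the minus strand at chr6:125494711-125495010 and Tspan8 on the plus strand at chr10:115817034-115817333.
Cd9: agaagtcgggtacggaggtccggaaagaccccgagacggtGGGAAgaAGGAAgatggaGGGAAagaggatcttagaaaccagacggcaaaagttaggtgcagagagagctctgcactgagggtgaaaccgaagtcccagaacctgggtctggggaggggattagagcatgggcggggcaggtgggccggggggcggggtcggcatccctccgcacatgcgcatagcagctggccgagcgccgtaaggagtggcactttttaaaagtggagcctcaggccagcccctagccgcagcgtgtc
Tspan8: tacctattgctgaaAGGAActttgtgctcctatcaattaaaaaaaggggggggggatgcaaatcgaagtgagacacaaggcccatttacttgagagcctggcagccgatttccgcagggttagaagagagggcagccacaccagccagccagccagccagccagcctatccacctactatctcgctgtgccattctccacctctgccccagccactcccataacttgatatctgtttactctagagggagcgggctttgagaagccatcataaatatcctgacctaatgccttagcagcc
The Cd9 promoter holds GGGAA at 210 and 192 bases before the start and AGGAA at 203 bases before it, whereas that of Tspan8 holds AGGAA at 236 bases before the start. Such short motifs are common. AGGAA occurs in 66.7% and GGGAA in 62.7% of all 32851 promoters of this length, and in 16 and 23 of the 34 promoters of the 24 members that the table lists. A match is a run of letters in this window and says nothing of binding.

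**Figure D2:**
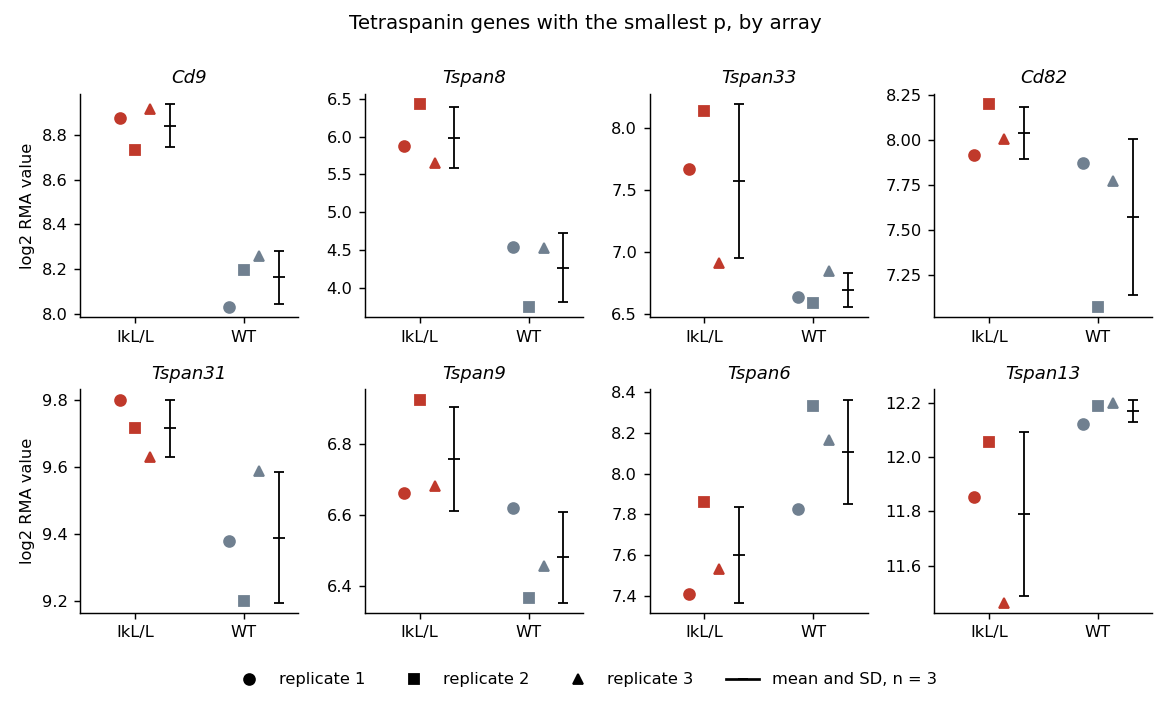
Log2 RMA value (vertical axis, scaled to each gene and starting above 0) of the 8 tetraspanin genes with the smallest p by sample, IkL/L in red on the left and WT in grey on the right, with each group's mean and SD in black (n = 3). The groups overlap only in Tspan6; Tspan33 is spread widest in the IkL/L group, from 6.91 to 8.14.

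The groups did not overlap in 9 of the 25 members, with 8 higher and 1 lower in IkL/L cells. The 8 include Tspan8, whose probe set was the brightest of its gene only through its IkL/L values. Over all genes 7.62% were apart on the higher side and 9.59% on the lower side. Among the 17 members with a mean of at least 6, 8 were apart and 1 was called, against 19.5% and 1.4% of all genes at that level in either direction. Beyond Cd9 and Tspan8, the members apart on the higher side were Tspan33, Cd82, Tspan31, Tspan9, Tspan32 and Tspan14, and the member apart on the lower side was Tspan13. None of these passed the adjusted threshold. Over all genes 17.2% were apart in either direction. IkL/L 2 was the highest array for 10 members and WT 2 the lowest for 8. The same counts were not taken over all genes, so they are not read as a trait of the family.

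The other CD antigens did not pass. Cd82, a suppressor of metastasis in human tumours that in mouse has been tied to stem cell quiescence, stood at 7.92, 8.20 and 8.00 in IkL/L samples 1, 2 and 3, against 7.87, 7.07 and 7.77 in the WT samples. WT 2 was low, and WT 1 lay just under the lowest IkL/L value. The difference was 0.47 (95% interval -0.01 to 0.95, adjusted p = 0.574 in limma), and the dimmer probe set of the gene gave -0.13. Without WT 2 the difference was 0.22 (adjusted p = 0.744).

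Cd81, a broadly expressed member that in human liver cells is an entry receptor of hepatitis C virus, differed by less than its spread. It stood at 10.59, 10.84 and 10.67 in IkL/L samples 1, 2 and 3 and at 10.74, 10.81 and 10.76 in the WT samples, with a difference of -0.07 (95% interval -0.30 to 0.16). Cd151, which binds laminin-receptor integrins, stood at 10.58, 10.70 and 10.65 in the IkL/L samples and at 10.84, 10.86 and 10.51 in the WT samples. Its difference was -0.09, and those of its 5 other probe sets ran from -0.20 to 0.11. Cd37, a leukocyte tetraspanin whose loss in mouse alters B and T cell responses, spread more widely than the genotypes differed. It stood at 8.61, 8.54 and 9.07 in the IkL/L samples and at 8.97, 8.23 and 8.82 in the WT samples, a difference of 0.06 with an interval from -0.44 to 0.57.

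Cd53, a pan-leukocyte tetraspanin, gave readings that depended on the probe set. By the brighter one it stood at 10.45, 10.70 and 10.63 in IkL/L samples 1, 2 and 3 and at 10.92, 10.54 and 10.59 in the WT samples. These overlapped, with a difference of -0.09 (95% interval -0.39 to 0.22). By the dimmer one it stood at 6.22, 6.22 and 5.77 in the IkL/L samples, against 7.18, 6.95 and 6.56 in the WT samples. Every IkL/L value of that probe set was below every WT value, with a difference of -0.83 (adjusted p = 0.153 in limma), which did not pass. Which transcripts the dimmer probe set reads was not analysed here.

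The TspanC8 group takes its name from the number of cysteines in the large loop, and its members carry ADAM10 out of the endoplasmic reticulum to the cell surface, where it sheds proteins that include Notch receptors. Its 6 members were measured and none passed. Tspan33, called Penumbra in mouse and needed there for normal erythropoiesis, had the largest difference of the group. It stood at 7.67, 8.14 and 6.91 in IkL/L samples 1, 2 and 3, against 6.64, 6.59 and 6.85 in the WT samples. IkL/L 1 and 2 were clearly higher than WT, whereas IkL/L 3 lay barely above WT 3. The means were 7.57 ± 0.62 in IkL/L and 6.69 ± 0.14 in WT cells (SD, n = 3 each), with a difference of 0.88 (95% interval 0.25 to 1.52, adjusted p = 0.350 in limma). Without IkL/L 3 the difference was 1.22 and passed (adjusted p = 0.0481), and over the leave-one-out fits the adjusted p ran from 0.0481 to 0.712. The other 3 probe sets of the gene gave 0.71, 0.45 and 0.25, all on the same side, and IkL/L 3 was below the top WT array in 2 of them. The probe set read here is of a kind whose probes can match related transcripts, so that its level is less certain.

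The other TspanC8 genes differed by little. Tspan14, prominent in mouse platelets and endothelium, stood at 10.80, 11.06 and 10.79 in IkL/L samples 1, 2 and 3 and at 10.78, 10.76 and 10.75 in the WT samples. IkL/L 2 alone stood out, and the difference was 0.12 (95% interval -0.12 to 0.36). Tspan5, which acts on ADAM10 cleavage of Notch, stood at 8.26, 8.31 and 8.18 in IkL/L and at 8.24, 8.25 and 8.29 in WT cells, a difference of -0.01 with the narrowest interval of all 25 members, from -0.22 to 0.19. The genotypes overlapped in it, as in the remaining members of the group. Tspan15, which directs ADAM10 to N-cadherin, stood at 4.97, 5.06 and 5.16 in IkL/L and at 4.93, 4.92 and 5.01 in WT cells (difference 0.11), and Tspan17 at 5.74, 5.52 and 5.42 in IkL/L and 5.43, 5.50 and 5.60 in WT cells (difference 0.05). Tspan10 was under the array medians on every array, at 3.98, 3.92 and 4.11 in IkL/L and 4.16, 4.10 and 3.78 in WT cells (difference -0.01).

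Members with known places in blood cells showed small differences. Tspan9, a tetraspanin of the platelet surface, stood at 6.66, 6.92 and 6.68 in IkL/L samples 1, 2 and 3, against 6.62, 6.37 and 6.46 in the WT samples. The groups were apart by the narrow gap between IkL/L 1 and WT 1, with a difference of 0.28 (95% interval 0.01 to 0.54, adjusted p = 0.553 in limma) and 0.00 by the dimmer probe set. Tspan32, which restrains T cell proliferation and stabilises thrombi in mouse, stood at 9.42, 9.50 and 9.42 in the IkL/L samples, against 9.40, 9.14 and 9.26 in the WT samples. Its difference was 0.18 (adjusted p = 0.689), with -0.03 by its other probe set and 0.11 without WT 2. Tspan2, best known from oligodendrocytes, gave -0.09.

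On the lower side, Tspan6 and Tspan13 had the smallest p. Tspan6, which in human cells dampens antiviral signalling from RIG-I-like receptors, stood at 7.41, 7.86 and 7.53 in IkL/L samples 1, 2 and 3, against 7.83, 8.33 and 8.16 in the WT samples. IkL/L 2 and WT 1 overlapped, and the difference was -0.51 (95% interval -0.89 to -0.12, adjusted p = 0.386 in limma). The other probe set gave a like difference with no overlap, at 7.38, 7.50 and 7.57 in IkL/L against 8.10, 7.98 and 7.82 in WT samples (difference -0.48, adjusted p = 0.154).

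Tspan13 stood at 11.85, 12.06 and 11.46 in IkL/L samples 1, 2 and 3, against 12.12, 12.19 and 12.20 in the WT samples. The WT values were tight (SD 0.04), and the IkL/L values were spread (SD 0.30) and all below them. The difference was -0.38 (95% interval -0.73 to -0.03, adjusted p = 0.518 in limma), and -0.05 by the dimmer probe set, in which the groups overlapped. Without IkL/L 3 the difference was -0.22 (adjusted p = 0.736).

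Tspan31, first found as a gene amplified in human sarcoma, stood at 9.80, 9.72 and 9.63 in IkL/L samples 1, 2 and 3, against 9.38, 9.20 and 9.59 in the WT samples, with a difference of 0.33 (adjusted p = 0.477 in limma). IkL/L 3 lay just above WT 3. Its other probe sets gave 0.13 and -0.24. Tspan3, which in mouse has been tied to self-renewal of leukaemic stem cells, gave -0.09, and Tspan4, a component of the migrasomes left behind by moving cells, 0.07.

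Tspan1, Tspan10, Tspan11, Tspan12 and Tspan18 were under the array medians on every array, with differences from -0.05 to 0.06. At such a brightness RNA and background are hard to separate, and a change can be missed. Tspan12 is the tetraspanin of the Norrin receptor in the retina, and Tspan18 is known from endothelium. Tetraspanins under other names, the uroplakins Upk1a and Upk1b and the photoreceptor proteins Rom1 and Prph2, gave -0.20, 0.00, 0.12 and -0.06, and none passed.

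**Figure D3:**
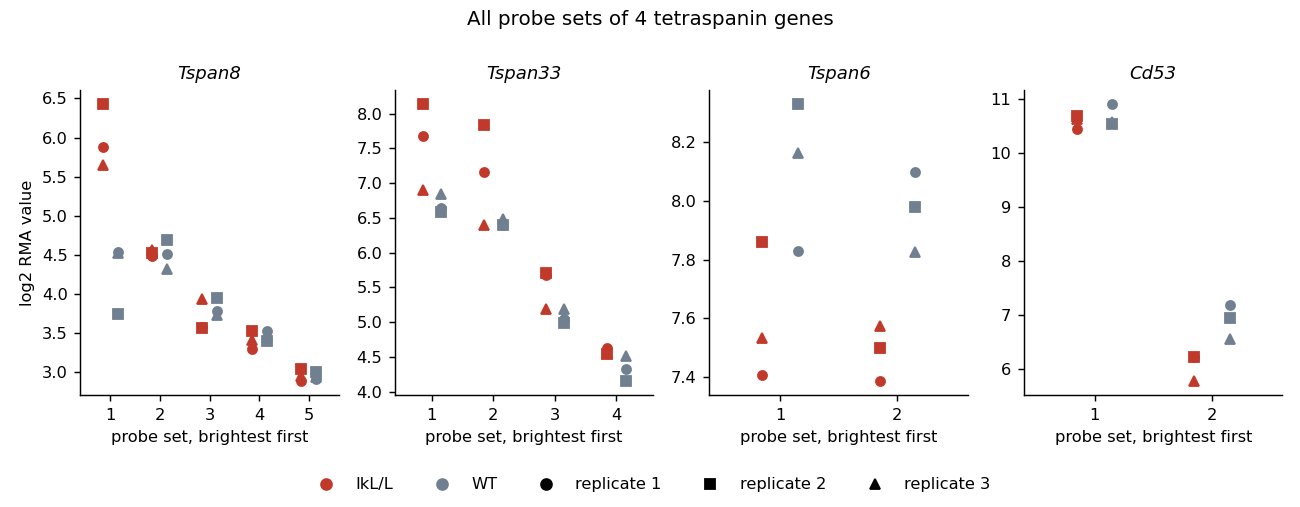
Log2 RMA value (vertical axis, not starting at 0, with a range of its own in each panel) of every probe set of 4 tetraspanin genes on each IkL/L (red, left of each pair) and WT (grey) array, ordered along the horizontal axis from the brightest probe set. Differences were 1.72 in the brightest of 5 probe sets of Tspan8 against -0.13 to 0.02 in the others, 0.25 to 0.88 in the 4 of Tspan33, -0.51 and -0.48 in those of Tspan6, and -0.09 and -0.83 in those of Cd53.

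Read by probe set, 2 of the 56 probe sets of the family were called higher and none lower, where 0.424% of all probe sets were called higher, 0.133% lower and 0.557% in either direction. The groups were apart in 9 on the higher side and 5 on the lower side, against 6.06% and 8.36% of all probe sets, or 14.4% in either direction. An unadjusted p under 0.05 was met by 7 on the higher and 5 on the lower side, against 8.84% of all probe sets. The median difference over the 56 was -0.01, below 0, whereas that over the 25 brightest was above it.

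Several markers of other cells differed between the groups. The mean log2 value of 6 measured megakaryocyte and platelet markers ran from 7.21 to 7.53 in IkL/L and from 6.77 to 7.19 in WT samples, with 0 of the 6 called. Among them Itga2b gave 0.86, Treml1 0.75 and Pf4 0.53 (adjusted p = 0.118, 0.0830 and 0.408 in limma). Gp9 gave 0.21, and Ppbp (-0.28) and Gp6 (-0.08) lay on the other side, with Gp6 under the array medians on every array. For 3 erythroid markers the mean ran from 7.19 to 7.73 in IkL/L and from 6.36 to 6.71 in WT samples, with 0 called. Hba-a1, a defining globin, was under the array medians throughout. Car1, the carbonic anhydrase of early erythroid cells, stood at 10.04, 10.52 and 9.46 in IkL/L samples 1, 2 and 3, against 8.27, 8.07 and 8.71 in WT. Its difference was 1.65 and that of Klf1 1.01 (adjusted p = 0.0507 and 0.143 in limma). For 7 B lineage markers the mean ran from 5.70 to 6.05 in IkL/L and from 5.17 to 5.30 in WT samples, with 2 called higher. These were Ms4a1 (2.38, with WT values under the array medians) and Vpreb1 (1.38). Igll1 gave 0.53, Cd79b 0.40 and Cd79a 0.23, whereas Ebf1 (-0.23, under the array medians on every array) and Pax5 (-0.22) lay below 0. For 5 granulocyte, basophil and mast cell markers the mean ran from 11.1 to 11.5 in IkL/L and from 9.95 to 10.4 in WT samples, also with 2 called higher. These were Mcpt8 (2.47) and Elane (2.16). Prtn3 gave 0.69, Cpa3 0.42 and Mpo 0.35, and in all 5 every IkL/L value lay above every WT value. The stromal and endothelial markers ran from 5.58 to 5.88 in IkL/L and from 5.50 to 6.78 in WT samples, highest on WT 1. Of the 6, only Cdh5 was called, with a difference of 2.50 and WT values under the array medians. Col1a1 (-1.43), Sparc (-1.24), Col1a2 (-1.20) and Cxcl12 (-0.76) lay below 0 and were not called, and Pecam1 gave 0.01. The T lineage markers ran from 4.32 to 4.39 in IkL/L and from 4.20 to 4.45 in WT samples, with none called. The macrophage markers ran from 5.08 to 5.70 in IkL/L and from 5.03 to 5.81 in WT samples, also with none called. Of these, Cd68 gave 1.17 (adjusted p = 0.0651 in limma), with every IkL/L value above every WT value. Adgre1 gave 0.11, whereas Vcam1 (-1.11), C1qa (-0.87) and C1qb (-0.21) lay below 0. The 5 LSK markers ran from 10.6 to 10.8 in IkL/L and from 10.9 to 11.2 in WT samples, with none called. Among them Flt3 gave -0.88 and Hlf -0.59 (adjusted p = 0.132 and 0.447 in limma), each with every IkL/L value below every WT value. Kit gave -0.13, Cd34 -0.08 and Meis1 0.03, with the groups overlapping. What part these have in the differences of Cd9, Tspan8 and Tspan33 was not tested.

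Of 33 genes listed as partners of tetraspanins, 32 were measured, 1 rose (3.12%) and none fell, where 0.748% of all genes were called higher and 0.242% lower. The median difference was 0.01, and the groups were apart in 7 on the higher side and 3 on the lower side, against 7.62% and 9.59% of all genes. The gene that rose was Itgb3, the integrin chain that pairs with the product of Itga2b as the fibrinogen receptor of platelets. It stood at 9.44, 9.49 and 8.89 in IkL/L samples 1, 2 and 3, against 7.67, 7.21 and 7.38 in the WT samples (log2 difference 1.85, 3.62-fold, adjusted p = 0.00878 in limma). No value of one group came near the other. The call was lost without IkL/L 1 (difference 1.77, adjusted p = 0.0593) and held without each other array. Itgb3 has 2 probe sets, and with their mean in place of the brightest the difference fell to 0.92 (adjusted p = 0.00461 in limma). The dimmer probe set thus showed no rise of its own. The rise was seen by 1 of 2 probe sets, so that its presence, and not only its size, depends on the probe set read.

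Further integrin chains had differences above 0 that did not pass. Itga2b stood at 9.67, 10.18 and 9.69 in IkL/L samples 1, 2 and 3, against 8.98, 8.73 and 9.24 in the WT samples (difference 0.86, adjusted p = 0.118 in limma). Itga6, a chain of the laminin receptors, gave 0.56 (adjusted p = 0.100) and Itgb1 0.68 (0.240), with no overlap between the groups in either. Itgb1 has 6 probe sets, and with their mean its difference was 0.15 (adjusted p = 0.627). Itga3, Itga4 and Itga5 gave -0.03 to 0.04.

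Among the other partners, Clec7a, the fungal receptor dectin-1 that associates with CD37, stood at 7.29, 7.38 and 8.51 in IkL/L samples 1, 2 and 3, against 5.82, 5.67 and 6.47 in the WT samples (difference 1.74, adjusted p = 0.0977 in limma). The MHC class II chain H2-Ab1 gave 0.91 (adjusted p = 0.100). Notch1, a substrate of ADAM10, stood at 10.50, 10.41 and 10.45 in the IkL/L samples, against 10.86, 10.90 and 10.84 in the WT samples. Its groups were tight and apart, with a difference of -0.41 (adjusted p = 0.122) that did not pass. Adam10 itself gave 0.10 (95% interval -0.13 to 0.34) and the EWI protein Igsf8, a direct partner of CD9 and CD81, 0.01.

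**Figure D4:**
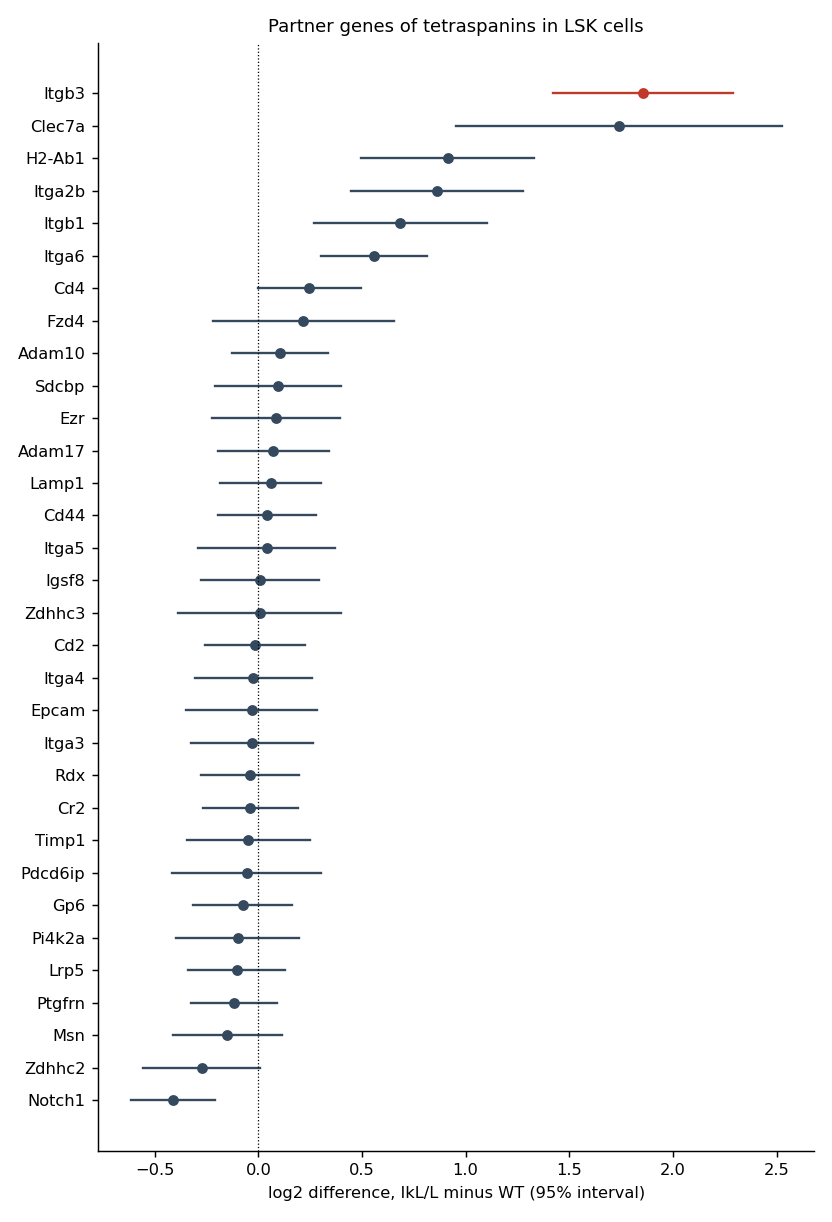
Log2 difference between IkL/L and WT LSK cells (horizontal axis, with its 95% interval from limma, n = 3 arrays per group) for the 32 measured partner genes of tetraspanins, one per row, ordered by size. Itgb3 (1.85), in red, passed the adjusted threshold, and the lowest value was that of Notch1 (-0.41).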

How the data were processed

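RNA of sorted LSK cells (100 ng) was amplified in 2 cycles and hybridised to Affymetrix Mouse Genome arrays. The deposited values are on a log2 scale; the authors made them by RMA in R 2.8 per the labels, and the methods state that these arrays were normalized jointly with thymocyte arrays. The quantile step gives all arrays nearly 1 distribution and removes any change in total RNA. The table held 45037 probe sets. In the platform annotation 34945 have 1 gene, 932 several, and 9160 are not listed. Symbols were updated by Entrez number (34741 matched) in a RefSeq table. A gene was read from its brightest probe set over the 6 arrays.

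Each probe set was tested with limma (version 3.58.1, R 4.3.3), by moderated two-sided tests of a model with genotype alone, and p-values were adjusted by the Benjamini-Hochberg method across the whole table. The fit was tested on simulated data. The p-values rest on the spread between 3 samples per group, which limma draws towards that of all probe sets, and the array number limits precision. Each IkL/L sample pooled 2 mice and each WT sample came from 1. Pooling therefore cannot be told apart from genotype, and the spreads of the groups are unlike in kind. Members and lists were chosen with earlier results of these data known. Members called, those with an unadjusted p under 0.05, the CD antigens, the TspanC8 group and members known in blood are given by array; of the partners, those called and up to 6 others of smallest p are named. Adam10, Igsf8 and the remaining integrin chains were added after their values were seen. There were 15 alternatives.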

Additional observations from a re-analysis of the deposited data

How the results depend on the processing

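With 3 arrays per group and a threshold near which Cd9 and Tspan8 lie, the number of arrays limits what can be called, and dim members limit it further. The number of members called higher was 2 under 5 of the alternatives. In the filter on a mean at or above the median, Tspan8 was kept only through its IkL/L values. With adjustment over 1 probe set per gene, its probe set was likewise taken only through them. Neither of these fits is support for its call. Every other fit that called Tspan8 read the same probe set, so that none was free of this choice. The number was 1 with a second quantile normalization (Tspan8) and with probe sets of a mean of at least 6 (Cd9, Tspan8 not being tested). After averaging probe sets per gene it was 1 (Cd9), and with a replicate block 0. Over the 6 fits that leave out an array it was 0 to 1, the 1 being Tspan33 without IkL/L 3. No member was called lower in any fit. Partner genes called higher numbered 2 with the replicate block (Itgb3, Clec7a), 4 after averaging probe sets per gene (with H2-Ab1 and Itga2b) and 0 to 1 with an array left out. The median difference of the members was 0.0086 after averaging probe sets per gene, and 0.0013 to 0.072 with an array left out. The cause was not tested. Over all probe sets, same-numbered samples did not deviate together (correlations of 0.0084, -0.11 and 0.079, beside -0.13 to 0.12 for the other pairs). A tie between same-numbered samples in part of the probe sets could be missed by such a correlation. The block lowered the calls over all probe sets from 251 to 143.

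Members with differences near 0 took the other sign in some fits. The values were 0.019 for Tspan10 with a second quantile normalization, 0.0047 for Tspan5 and 0.0058 for Tspan10 with median centring, -0.068 for Cd37 with array weights, and 0.12 for Tspan18 and -0.078 for Tspan11 after averaging probe sets per gene. With an array left out, the difference ran from -0.16 to 0.21 for Cd37, -0.16 to 0.030 for Cd53, -0.13 to 0.063 for Tspan10, -0.079 to 0.15 for Tspan11, -0.11 to 0.076 for Tspan12, -0.041 to 0.12 for Tspan17, -0.026 to 0.17 for Tspan1, -0.19 to 0.0013 for Tspan3, -0.035 to 0.15 for Tspan4 and -0.041 to 0.021 for Tspan5.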
